A study of Arabidopsis thaliana with 12 samples.

Results

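Salicylate is the hormone through which Arabidopsis switches on defence against microbes that feed on living tissue. Most of it is made from chorismate by a route that starts with ICS1 (AT1G74710). It is bound by NPR1 (AT1G64280), a receptor and transcriptional coactivator that works with TGA transcription factors at defence promoters. NIMIN1 (AT1G02450) binds NPR1 and restrains it. WRKY70 (AT3G56400), its close relative WRKY54 (AT2G40750) and WRKY38 (AT5G22570) are group III WRKY transcription factors that salicylate induces. WRKY54 and WRKY70 are known to restrain salicylate synthesis, and WRKY38 to restrain basal defence. The classical outputs are the pathogenesis-related genes PR1 (AT2G14610), PR2 (AT3G57260, a beta-1,3-glucanase) and PR5 (AT1G75040, a thaumatin-like protein). PCC1 (AT3G22231), whose name stands for pathogen and circadian controlled 1, encodes a small cysteine-rich protein of the plasma membrane that pathogens induce.

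These 10 genes, of 33610 gene IDs in the files, are described here in inflorescences of Arabidopsis thaliana. They were selected on their FPKM in the same libraries, with the difference between the genotypes already known, and on their place in the salicylate pathway. Their change between the genotypes is therefore given as a description with no test, while their difference between the file-header sets, a separate contrast, was tested. Values by set may also have been known when the genes were chosen, so that test is no independent evidence about this group of genes.

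The study compared wild-type plants of the Col accession with amiR-SEAP1 plants, which carry an engineered small RNA directed against the SEAP1 transcript, with 4 mRNA libraries per genotype. All plants grew untreated at 22 °C with 16 h of light and 8 h of dark, so the levels are those of plants given no pathogen and no salicylate. The sources used here do not give the age of the plants, the promoter that drives the artificial miRNA or the number of transgenic lines. No reference symbol or synonym matched SEAP1, and the targeted transcript is not analysed here, so the knockdown was not checked.

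The file headers place replicates 1 and 2 of each genotype in a set named FLW and replicates 3 and 4 in a set named AI. They also name the amiR-SEAP1 libraries R15 in FLW and R155 in AI, so that within this genotype the set and this name cannot be told apart. Whether the names stand for different transgenic lines is not stated. Libraries that share genotype and set were nearly repeats: over 1226 genes of at least 100 FPKM, the median coefficient of variation was 1.07% to 1.31% within such a pair. Between the sets it was 15.2% in wild type and 10.4% in amiR-SEAP1. For means, each pair was therefore counted as 1 sample, and every mean ± SD below is over n = 2 pairs per genotype. The fits across all genes kept the 8 libraries and estimated the correlation within pairs, and fits on pair means are given beside them. Separate plants or cultures are not stated in the labels, so p-values cover only the variation among these libraries, which may be technical in origin. The FPKM sum of a library ranged from 680667 to 715611, with relative depths within a factor of 1.16. All 6 floral identity markers had a mean of at least 1 FPKM, as did all 14 green tissue markers. In such bulk tissue, fewer cells of a type and less RNA per cell cannot be told apart.

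For PCC1, WRKY54, NIMIN1 and PR2, all amiR-SEAP1 libraries lay below all wild-type libraries, as they did for 9.56% of all genes tested. Averaged over the sets PCC1 differed by the most, while in FLW the ratio was larger for PR2. ICS1, at the start of the pathway, and NPR1, its receptor, stayed within a narrow range in both genotypes. WRKY70 went in opposite directions in the 2 sets. PR1 and WRKY38 were barely detected. The FPKM of PR1 was lower in every amiR-SEAP1 library, but only a few of its smallest steps above 0. The lowest wild-type and the highest amiR-SEAP1 library were both at 3 steps.

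**Figure D1:**
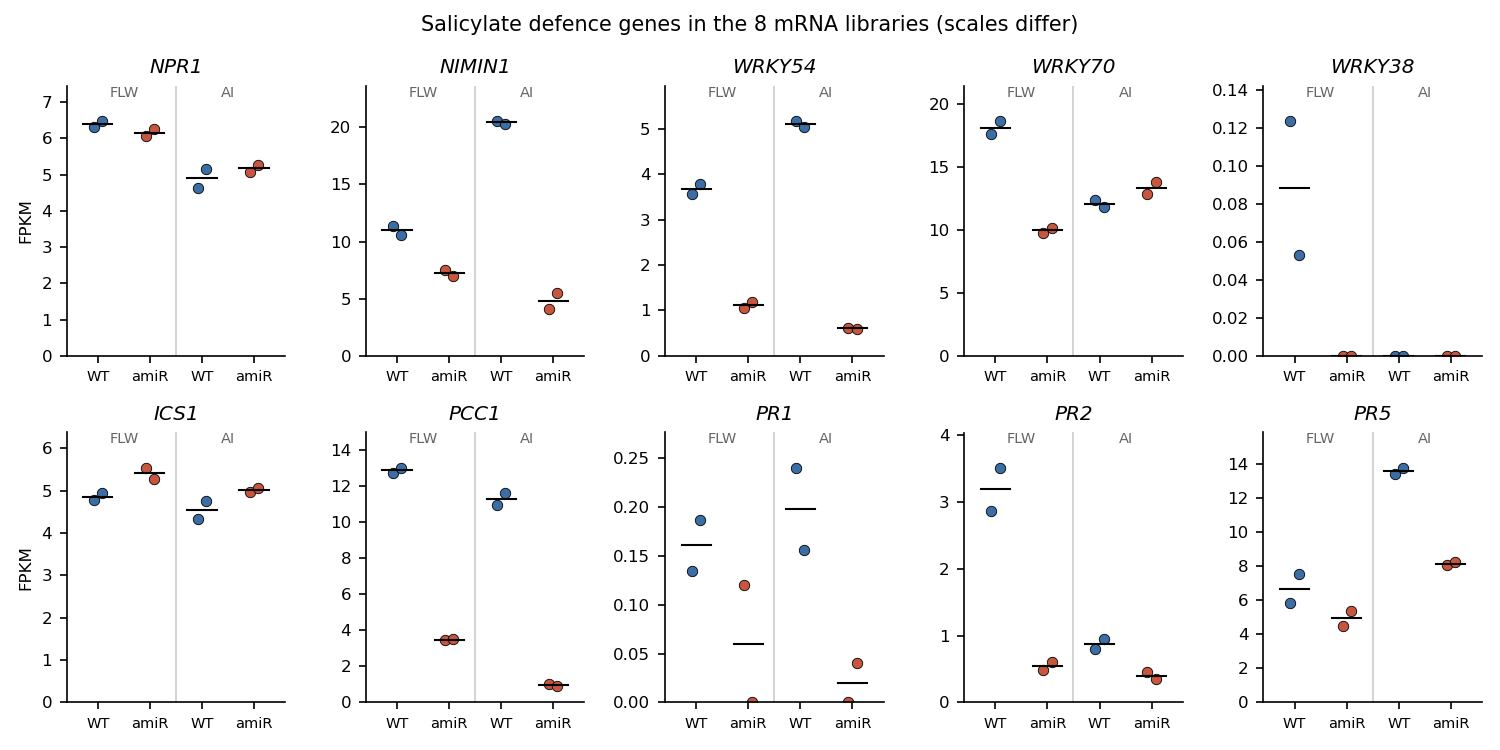
FPKM of each of the 10 genes in the 8 mRNA libraries, by genotype and header set, with 1 point per library, a bar at the mean of each pair and a scale of its own for each gene. The amiR-SEAP1 points of WRKY54, NIMIN1, PCC1 and PR2 lie below every wild-type point (9.56% of all genes tested do). Those of ICS1 lie above (14.8% do), and PR1 and WRKY38 stay below 0.25 FPKM.

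The receptor NPR1 was at 6.33 and 6.47 FPKM in the wild-type FLW libraries and at 4.63 and 5.16 FPKM in the AI libraries. In amiR-SEAP1 it was at 6.06 and 6.25 FPKM in FLW and at 5.07 and 5.28 FPKM in AI. The genotypes overlapped, with means of 5.65 ± 1.06 and 5.66 ± 0.694 FPKM, and the change over both sets was 0.01 on the log2(FPKM + 1) scale (SE 0.19). NPR1 is the only member that overlaps other reference genes, 2 of them, and reads from the shared stretch cannot be told apart without strand.

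NIMIN1, the NPR1-binding repressor, was at 11.3 and 10.6 FPKM in wild-type FLW and at 20.5 and 20.3 FPKM in wild-type AI. The amiR-SEAP1 libraries held 7.55 and 6.95 FPKM in FLW and 4.06 and 5.51 FPKM in AI. No library of amiR-SEAP1 reached the lowest of wild type, and the means were 15.7 ± 6.67 and 6.02 ± 1.75 FPKM. The ratio of the wild-type to the amiR-SEAP1 mean was 1.51 in FLW and 4.27 in AI. NIMIN1 was higher in AI than in FLW in wild type and lower in AI than in FLW in amiR-SEAP1. Set against its partner within each library, NIMIN1 stood at 1.79 and 1.64 times NPR1 in wild-type FLW and at 4.43 and 3.94 times in wild-type AI. In amiR-SEAP1 the same ratio was 1.25 and 1.11 in FLW and 0.801 and 1.04 in AI, so the 2 genes were near equal there.

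WRKY54 was at 3.56 and 3.78 FPKM in wild-type FLW and at 5.16 and 5.04 FPKM in wild-type AI. It was at 1.05 and 1.18 FPKM in amiR-SEAP1 FLW and at 0.622 and 0.595 FPKM in amiR-SEAP1 AI. The genotypes did not overlap in either set. The mean was 4.39 ± 1.01 FPKM in wild type and 0.862 ± 0.359 FPKM in amiR-SEAP1. Wild type stood 3.29-fold above amiR-SEAP1 in FLW and 8.38-fold in AI.

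WRKY70, the closest relative of WRKY54, did not follow it. It was at 17.6 and 18.6 FPKM in wild-type FLW and at 9.80 and 10.1 FPKM in amiR-SEAP1 FLW, a 1.82-fold difference. In AI, wild type was at 12.4 and 11.8 FPKM and amiR-SEAP1 at 12.9 and 13.8 FPKM, 1.101-fold above wild type. Both AI libraries of amiR-SEAP1 were thus higher than both of wild type, the reverse of FLW, and the overall means of 15.1 ± 4.26 and 11.6 ± 2.38 FPKM average over this. WRKY54 amounted to 0.202 and 0.203 of WRKY70 in wild-type FLW and to 0.416 and 0.428 in wild-type AI. In amiR-SEAP1 it amounted to 0.107 and 0.117 in FLW and to 0.0484 and 0.0432 in AI. The balance between these 2 related factors therefore leaned further to WRKY70 in every amiR-SEAP1 library.

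WRKY38 was listed at 0.124 and 0.0531 FPKM in the wild-type FLW libraries and at 0 in the other 6 libraries. These values are 2 and 1 times the smallest step that its FPKM takes, so WRKY38 was not detectable beyond single steps at this depth, and no fold is given.

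ICS1, the main enzyme of salicylate synthesis, was at 4.77 and 4.94 FPKM in wild-type FLW and at 4.32 and 4.75 FPKM in AI. In amiR-SEAP1 it was at 5.54 and 5.27 FPKM in FLW and at 4.98 and 5.07 FPKM in AI. Every amiR-SEAP1 library lay above every wild-type library, by a small margin: the means were 4.70 ± 0.227 and 5.22 ± 0.269 FPKM, and the log2 change was 0.13 in FLW and 0.12 in AI. Of all genes tested, 14.8% had every amiR-SEAP1 library above every wild-type library.

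PCC1 was at 12.8 and 13.0 FPKM in wild-type FLW, and at 10.95 and 11.61 FPKM in wild-type AI. In amiR-SEAP1 it was at 3.46 and 3.51 FPKM in FLW and at 1.02 and 0.907 FPKM in AI. The wild-type libraries stayed close together while the amiR-SEAP1 sets differed 3.61-fold. The means were 12.1 ± 1.148 and 2.22 ± 1.78 FPKM, with wild type 3.70-fold higher in FLW and 11.7-fold higher in AI. Among the genes tested, ranked from the largest decrease on the log2 scale, PCC1 was number 8 and WRKY54 number 24 of 20743. Relative to ICS1 in the same library, PCC1 stood at 2.67, 2.64, 2.53 and 2.45 in wild type. In amiR-SEAP1 this ratio was 0.624 and 0.666 in FLW and 0.205 and 0.179 in AI.

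PR2 was at 2.87 and 3.51 FPKM in wild-type FLW but at 0.7998 and 0.9454 FPKM in wild-type AI. It was at 0.485 and 0.602 FPKM in amiR-SEAP1 FLW and at 0.458 and 0.345 FPKM in AI. PR2 was high only in the wild-type FLW libraries, and the ratio of wild type to amiR-SEAP1 was 5.87 in FLW against 2.17 in AI. Its means were 2.03 ± 1.64 and 0.472 ± 0.101 FPKM.

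PR5 was at 5.83 and 7.52 FPKM in wild-type FLW and at 13.4 and 13.8 FPKM in wild-type AI. In amiR-SEAP1 it was at 4.48 and 5.38 FPKM in FLW and at 8.07 and 8.22 FPKM in AI. Within each set the amiR-SEAP1 libraries were lower, 1.35-fold in FLW and 1.67-fold in AI, but over all 8 libraries the genotypes overlapped. The means were 10.1 ± 4.90 and 6.54 ± 2.28 FPKM.

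PR1, the usual marker of the salicylate response, was at 0.135 and 0.187 FPKM in wild-type FLW and at 0.240 and 0.156 FPKM in wild-type AI. It was listed at 0.120 and 0 FPKM in amiR-SEAP1 FLW and at 0 and 0.0404 FPKM in AI. The wild-type values were 3 to 6 of the smallest steps and the highest amiR-SEAP1 value was 3, so no fold is given.

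Of the 10 genes, 8 reached the mean of 1 FPKM needed to enter the fit across all genes, and WRKY38 and PR1 did not. Those 8 include genes that passed through the wild-type level, so their counts describe the choice. PCC1, WRKY54, NIMIN1, PR2 and PR5 were lower in amiR-SEAP1 without overlap in each set, against 19.9% of all genes tested. Only ICS1 was higher without overlap in each set, against 25.7%, and only WRKY70 went in opposite directions, against 18.3%. PCC1, WRKY54, NIMIN1 and PR2 were also lower across all 8 libraries, against 9.56%. The same 4 had a mean at least 2-fold lower in amiR-SEAP1, against 1.2% of genes. The median log2 change of the 8 was -0.72, beside 0.03 over all genes tested.

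On the log2(FPKM + 1) scale, which understates changes of low genes, the change over both sets was -2.14 for PCC1 (SE 0.32), -1.53 for WRKY54 (SE 0.23) and -1.22 for NIMIN1 (SE 0.38). It was -0.93 for PR2 (SE 0.40), -0.52 for PR5 (SE 0.40), -0.34 for WRKY70 and 0.13 for ICS1. With limma and the correlation within pairs estimated, at a false discovery rate of 0.05, 65 genes in all differed between the genotypes (0.313%), 48 higher (0.231%) and 17 lower (0.082%) in amiR-SEAP1. PCC1 and WRKY54 were among the 17, which repeats what chose them and is not read further. At an unadjusted p under 0.05 the fit gave 4.96% of genes higher and 4.69% lower. With the 8 libraries as independent, 12.2% passed, 7.5% higher and 4.7% lower, and on pair means 0% passed, either higher or lower. Blocking on replicate number gave 2852 higher and 2306 lower. Leaving out any 1 of the 8 libraries brought the 48 to between 13 and 21 and the 17 to between 1 and 4.

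**Figure D2:**
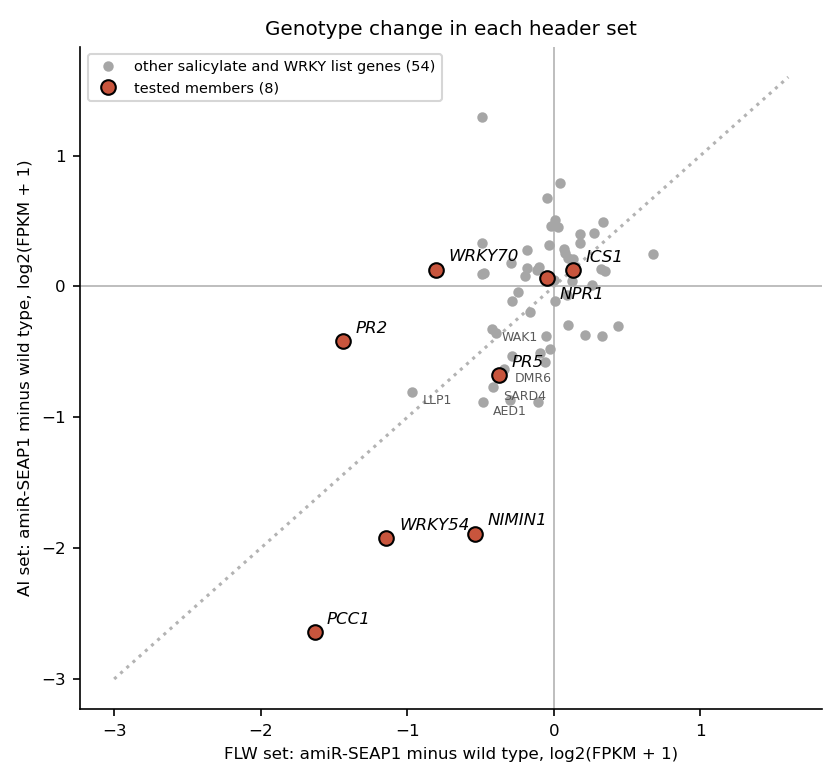
Change in amiR-SEAP1 relative to wild type on the log2(FPKM + 1) scale in the FLW set (horizontal) and the AI set (vertical), for the 8 tested genes (red) and 54 other salicylate and WRKY genes (grey); the dotted line marks equal change. PCC1, WRKY54 and NIMIN1 lie below the line, PR2 above it, and WRKY70 is lower in FLW and slightly higher in AI.

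The size of the genotype change thus depended on the set, and not in 1 way for all genes. For PCC1 it was -1.63 in FLW and -2.64 in AI on the log2(FPKM + 1) scale, for WRKY54 -1.14 and -1.92, and for NIMIN1 -0.54 and -1.89. For PR2 it was the other way round, with -1.44 in FLW and -0.42 in AI. With 1 pair per genotype in each set, these differences between sets could not be tested.

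The tested set difference, FLW minus AI with genotype held fixed, passed for PR5 and PCC1 only. PR5 was lower in FLW by limma, at -0.78 on the log2 scale (SE 0.18, adjusted p = 0.0141), and lower in 4 of 4 FLW libraries than in the AI libraries of the same genotype. PCC1 was higher in FLW by limma, at 0.69 (SE 0.20, adjusted p = 0.0336), again in 4 of 4 libraries, by 1.14-fold in wild type and 3.61-fold in amiR-SEAP1. These 2 of 8 genes stand beside 25.2% of all genes tested that differed between the sets, 13.5% higher and 11.8% lower in FLW. The share is near the background.

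Both set calls were limited by the small number of pairs. The 4 pairs leave 1 degree of freedom among pairs, and on pair means neither passed in limma (adjusted p = 0.124 for PR5 and 0.278 for PCC1). Leaving out wild-type replicate 2, wild-type replicate 3 or any amiR-SEAP1 library also ended the call for PCC1, with adjusted p in limma between 0.0540 and 0.0603.

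**Figure D3:**
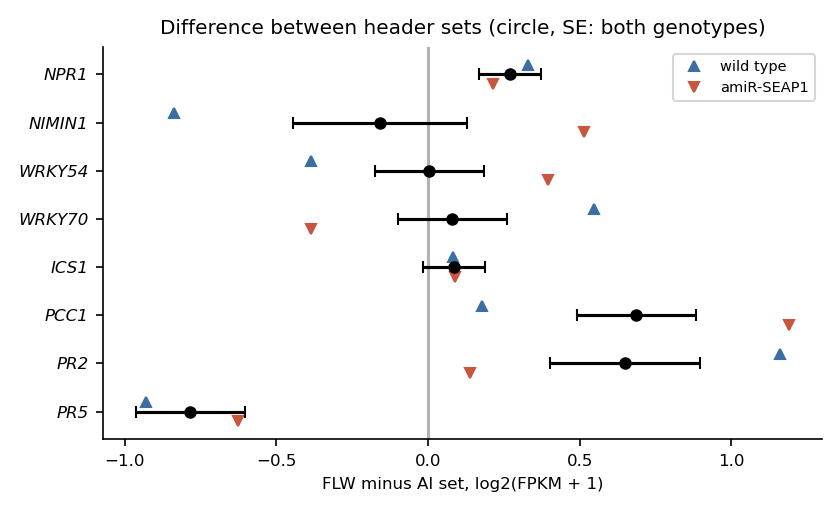
Difference between the FLW and AI sets for the 8 tested genes on the log2(FPKM + 1) scale, by genotype (triangles) and from the fit with genotype held fixed (circles with SE). PR5 is lower in FLW and PCC1 higher in both genotypes, while WRKY54, WRKY70 and NIMIN1 take opposite signs in the genotypes.

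For the other tested genes the set fit gave 0.65 for PR2 (SE 0.25, adjusted p = 0.0891 in limma) and 0.27 for NPR1 (SE 0.10, adjusted p = 0.0861). PR2 reached the mean of 1 FPKM through wild-type FLW, where it is high, and was not tested without wild-type replicate 2, so its set value is only a description. The values for WRKY54, WRKY70, NIMIN1 and ICS1 were 0.00, 0.08, -0.16 and 0.09, with adjusted p in limma from 0.584 to 0.989. In WRKY54, WRKY70 and NIMIN1 a near-zero average covered opposite differences. The AI level minus the FLW level of WRKY54 was 0.39 in wild type and -0.40 in amiR-SEAP1 on the log2 scale. For NIMIN1 it was 0.84 and -0.51, and for WRKY70 -0.55 and 0.39. Of all genes tested, 16.8% had such opposite directions without overlap.

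FPKM is per transcript length, so the levels of the 10 genes may be put in order. In wild type the order of mean FPKM was NIMIN1, WRKY70, PCC1, PR5, NPR1, ICS1 and WRKY54, and no step between neighbours among these 7 exceeded the larger SD of the 2. PR2, PR1 and WRKY38 followed, each step being larger than that SD. In amiR-SEAP1, WRKY70 came first by more than its SD. PR5, NIMIN1, NPR1 and ICS1 followed without separation between neighbours. PCC1 came next, below ICS1 by more than the SD, WRKY54 did not separate from PCC1, and PR2, PR1 and WRKY38 were last. PCC1 thus ranked above NPR1 and ICS1 in wild type and below them in amiR-SEAP1.

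The rest of the pathway was described through lists of genes by role, the 10 genes left out. In 8 lists on salicylate and WRKY factors, 54 of 79 genes were tested. None of the 54 passed the genotype test in limma at the false discovery rate of 0.05. At an unadjusted p under 0.05, ADR1 was higher, and DMR6, WAK1, AED1, LLP1 and SARD4 were lower, 1 and 5 genes, beside 4.96% and 4.69% of all genes. The fit with the libraries as independent called 3 higher and 5 lower, beside 7.5% and 4.7% of all genes. That with a set term called 1 higher and 7 lower, beside 1543 and 1575 of all 20743 genes. That with the replicate number as a block called 4 higher and 9 lower, beside 2852 and 2306 of all 20743 genes. The median log2 change of the 54 was 0.00, beside 0.03 over all genes. Without overlap in each set, 12 were lower and 9 higher, beside 19.9% and 25.7% of all genes.

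**Figure D4:**
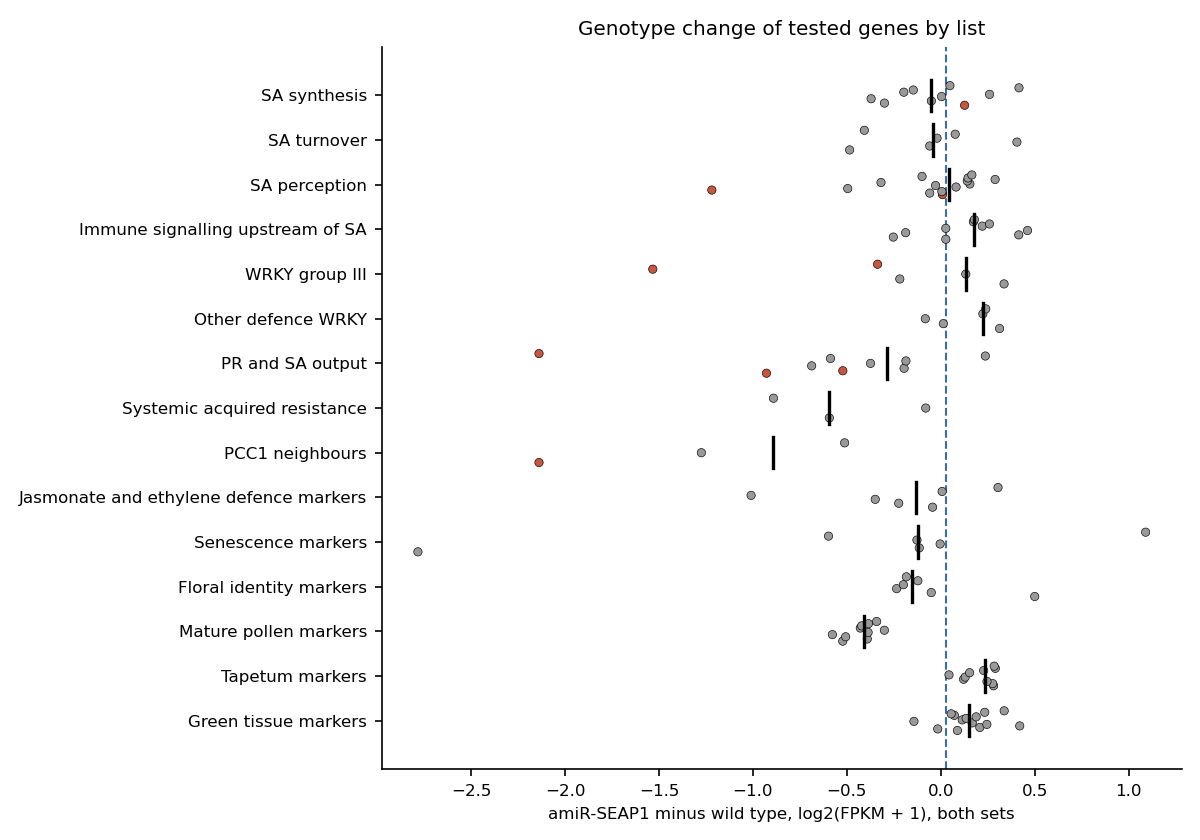
Change in amiR-SEAP1 relative to wild type on the log2(FPKM + 1) scale for each tested gene of the lists (grey), with the members in red, the list medians without the members as black bars and the median of all genes as a dashed line. The lowest medians are those of the genes near PCC1 (-0.89, 2 genes), systemic acquired resistance (-0.59, 3 genes), the mature pollen markers (-0.41, 10 genes) and the output genes (-0.28, 6 genes), beside 0.03 for all genes.

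Of the synthesis genes beside ICS1, 9 of 11 were tested and 0 passed in either direction, with a median log2 change of -0.05. PBS3, which couples isochorismate to glutamate on the way to salicylate, was at 13.0 ± 1.68 FPKM in wild type and 9.80 ± 1.099 FPKM in amiR-SEAP1 (log2 change -0.37, SE 0.19). EDS5, which exports isochorismate from the plastid, was at 3.49 ± 0.623 and 3.31 ± 0.348 FPKM, and overlaps another reference gene. Of the genes of salicylate turnover, 6 of 9 were tested and 0 passed, with a median of -0.04. DMR6, a salicylate hydroxylase, was at 18.7, 19.9, 23.2 and 23.7 FPKM in wild type and at 15.15, 14.97, 14.44 and 15.09 FPKM in amiR-SEAP1. The genotypes did not overlap in DMR6, and the log2 change was -0.49 (SE 0.14, adjusted p = 0.227 in limma). Of all genes tested, 9.56% were lower in every amiR-SEAP1 library.

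Of the perception genes beside NPR1 and NIMIN1, 12 of 13 were tested, 0 passed, and the median was 0.04. NIMIN2, another NPR1-binding protein, was at 3.10 and 3.30 FPKM in wild-type FLW and at 5.04 and 6.34 FPKM in AI. In amiR-SEAP1 it was at 3.04, 2.74, 2.69 and 2.55 FPKM, lower without overlap, beside 9.56% of all genes tested (log2 change -0.50, SE 0.31). NIMIN3 was at 14.1 ± 3.88 and 15.1 ± 4.74 FPKM, with overlap. TGA3 and TGA5, which bind DNA together with NPR1, had log2 changes of -0.32 and 0.29.

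Among 10 of 12 tested genes of immune signalling upstream of salicylate, 0 passed and the median was 0.18. EDS1, a hub of this signalling, was at 15.6 ± 0.529 and 16.0 ± 0.152 FPKM. ADR1, a helper immune receptor, was at 5.04 ± 0.0359 FPKM in wild type and 7.41 ± 1.82 FPKM in amiR-SEAP1 (log2 change 0.46, SE 0.20, adjusted p = 0.489 in limma). SAG101, a partner of EDS1, was at 3.11 ± 0.426 and 4.46 ± 0.156 FPKM. Both were higher in every amiR-SEAP1 library, as were 14.8% of all genes tested.

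Of the other group III WRKY genes, 3 of 10 were tested and 0 passed. WRKY41, WRKY46 and WRKY53 had log2 changes of 0.34, -0.22 and 0.13, beside -1.53 for WRKY54. WRKY41 and WRKY53 overlap other reference genes. The other 7 had a mean below 1 FPKM. Of 6 further defence WRKY genes, 5 were tested, 0 passed, and the median was 0.22.

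Of 12 further output genes, 6 were tested and 0 passed, with a median log2 change of -0.28. AED1, an apoplastic protease, was at 2.53 ± 0.140 FPKM in wild type and 1.22 ± 0.518 FPKM in amiR-SEAP1 (-0.69, SE 0.26, adjusted p = 0.409 in limma). WAK1, a wall-associated kinase, was at 9.14 ± 0.722 and 6.81 ± 0.167 FPKM. Both were lower in all amiR-SEAP1 libraries, while NUDT6, a hydrolase that acts in salicylate signalling, was at 2.15 ± 0.278 and 2.70 ± 0.0946 FPKM and higher in all of them. Of all genes tested, 9.56% were lower and 14.8% higher in this way.

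Of 6 genes of systemic acquired resistance, 3 were tested and 0 passed. LLP1, a lectin-like protein of this response, was at 20.0, 19.4, 18.8 and 19.4 FPKM in wild type and at 9.98, 9.20, 9.49 and 11.5 FPKM in amiR-SEAP1. It was 2.06-fold lower in FLW and 1.82-fold lower in AI, at a log2 change of -0.89 (SE 0.23, adjusted p = 0.180 in limma). LLP1 overlaps another gene in the reference, as does SARD4, an enzyme of pipecolate synthesis that was at 16.1 ± 4.43 and 10.7 ± 4.95 FPKM.

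Genes beside WRKY54 and PCC1 were also read, with the order of genes taken from RefSeq TAIR10.1. WRKY55, the gene next to WRKY54 and also a group III WRKY, had a mean of 0.129 FPKM over the 8 libraries and was not tested. AT3G22235, the next protein-coding gene on one side of PCC1, with pseudogenes and a non-coding RNA between them, was at 9.78, 9.70, 13.5 and 12.8 FPKM in wild type and at 3.11, 3.58, 5.02 and 4.94 FPKM in amiR-SEAP1. It was 2.91-fold lower in FLW and 2.64-fold lower in AI, with a log2 change of -1.27 (SE 0.22, adjusted p = 0.0592 in limma). AT3G22240, the protein-coding gene after that, was at 17.8 and 18.1 FPKM in wild-type FLW, 32.1 and 30.7 FPKM in wild-type AI and 14.6 to 17.8 FPKM in amiR-SEAP1. Whether PCC1, AT3G22235 and AT3G22240 share reads was not tested, so their values may not be independent of each other.

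Across the sets, 7 of the 54 list genes were higher and 3 lower in FLW, beside 13.5% and 11.8% of all genes, and the higher count is at the background. Those higher included NIMIN3, SARD4 and WRKY33, at 0.57, 0.71 and 0.69 on the log2 scale in the limma fit, with adjusted p of 0.00269, 0.000755 and 0.00420. The lower ones were PAL1 and PAL2, phenylalanine ammonia-lyases of the minor route to salicylate, and BSMT1, which methylates salicylate, at -0.27, -0.37 and -0.74, with adjusted p of 0.00853, 0.00782 and 0.000845 in limma. On pair means none of these 6 passed, with adjusted p in limma between 0.122 and 0.259. WRKY33 and BSMT1 overlap other reference genes.

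The genes most like WRKY54 and PCC1 across the 8 libraries were found by the smallest root mean square difference of centred log2(FPKM + 1). For WRKY54, whose own values had a centred SD of 0.79, these were TPS14, a terpene synthase (0.14), AT1G23130 (0.15) and AT5G44565 (0.20). TPS14 was at 62.8 and 64.5 FPKM in wild-type FLW, 87.2 and 86.1 FPKM in wild-type AI, 33.5 and 33.9 FPKM in amiR-SEAP1 FLW and 18.9 and 20.0 FPKM in amiR-SEAP1 AI. For PCC1, with a centred SD of 1.151, they were AT2G47880 (0.32), AT3G25810 (0.33) and TPS21, another terpene synthase (0.39). TPS21 was at 34.8 to 40.0 FPKM in wild type, 24.7 and 24.3 FPKM in amiR-SEAP1 FLW and 6.16 and 6.17 FPKM in amiR-SEAP1 AI. All 6 were picked by likeness, so their changes are not evidence of anything further.

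**Figure D5:**
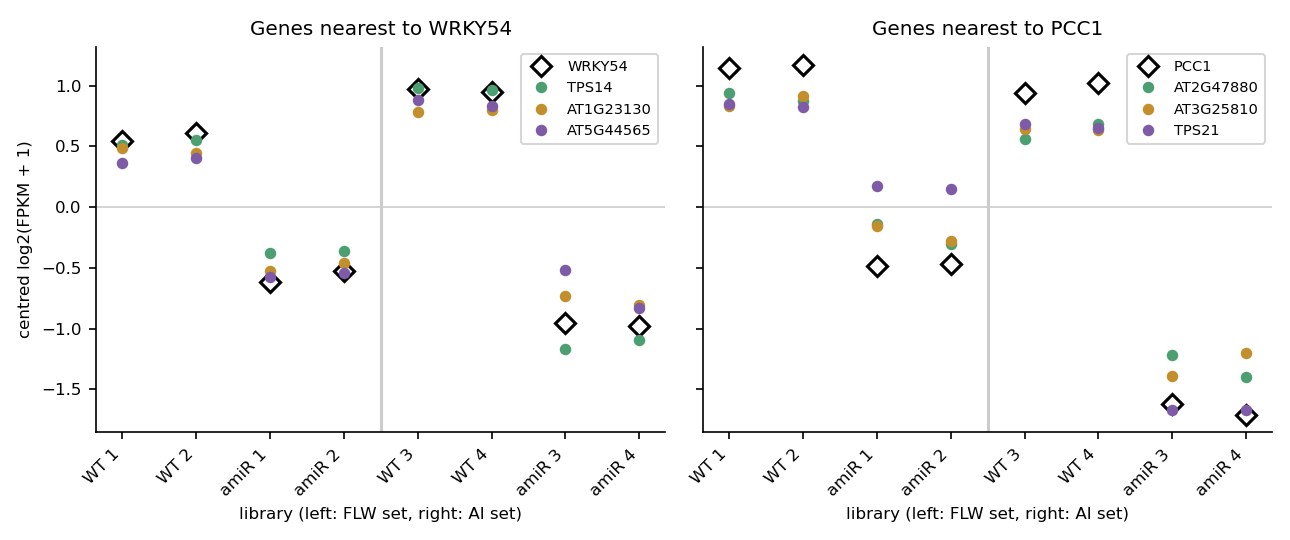
Centred log2(FPKM + 1) of WRKY54 and of PCC1 (open diamonds) with the 3 genes most like each (filled points) in the 8 libraries. In the group of WRKY54 the wild-type AI libraries are highest and the amiR-SEAP1 AI libraries lowest, except that AT5G44565 in amiR-SEAP1 replicate 3 lies above its FLW values. In that of PCC1 the wild-type sets lie close together and the amiR-SEAP1 AI libraries are lowest.

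Markers of tissues and of other states moved with the same groups. Mature pollen markers were lower in amiR-SEAP1 in both sets without overlap for 10 of 10 genes, beside 19.9% of all genes, and their summed FPKM was 1651 to 2852 in wild type and 1406 to 1985 in amiR-SEAP1. Tapetum markers were lower in FLW for 10 of 10 and higher in AI for 10 of 10, with sums of 439 to 616 FPKM in wild type and 483 to 755 FPKM in amiR-SEAP1. Of all genes tested, 18.3% took opposite directions in the sets without overlap, either way round. WRKY70 had the direction of the tapetum markers in each set. Green tissue markers summed to 16850 to 18150 FPKM in wild type and 17897 to 19271 FPKM in amiR-SEAP1. None of these markers passed the genotype test in limma. At an unadjusted p under 0.05, 7 of the 10 pollen markers were lower and 2 of the 14 green tissue markers higher, beside 4.69% and 4.96% of all genes. With the libraries as independent 5 and 1 passed, beside 4.7% and 7.5%. The part of these tissues in the values of the 10 genes was not tested.

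Salicylate also acts in leaf senescence, and 6 senescence markers were read as well, of which 0 passed the genotype test in limma. ORE1 alone was lower at an unadjusted p under 0.05 in that fit, beside 4.69% of all genes. SAG12, a protease of late senescence, was at 98.7, 102, 57.4 and 60.0 FPKM in wild type, at 103 and 105 FPKM in amiR-SEAP1 FLW, and at 0.195 and 0.243 FPKM in amiR-SEAP1 AI. SEN1 differed the other way in AI, at 12.7, 15.3, 0.502 and 0.490 FPKM in wild type and at 9.51, 10.6, 7.73 and 8.65 FPKM in amiR-SEAP1. SAG13 and SAG29 were higher in amiR-SEAP1 in FLW and lower in AI, and NAP and ORE1 were lower in both. Without overlap, 18.3% of all genes tested took opposite directions in the sets, and 19.9% were lower in both. The 6 markers summed to 169 and 176 FPKM in wild-type FLW, 93.0 and 96.6 FPKM in wild-type AI, 183 and 186 FPKM in amiR-SEAP1 FLW and 30.5 and 30.2 FPKM in amiR-SEAP1 AI. SAG12 made up most of each sum except in amiR-SEAP1 AI, so the sums mainly follow this gene. The part of the 6 markers in the values of the 10 genes was not tested. Of the jasmonate and ethylene markers, 6 of 8 were tested and 0 passed. VSP2, a jasmonate-induced storage protein that may share reads with its close copy VSP1, was at 302, 295, 616 and 622 FPKM in wild type and at 173, 172, 265 and 262 FPKM in amiR-SEAP1 (log2 change -1.01, SE 0.29, adjusted p = 0.233 in limma). The others did not share this direction throughout: VSP1, PR4, PR3, LOX2 and THI2.1 had log2 changes of -0.35, -0.22, -0.04, 0.01 and 0.30. THI2.1, a thionin that overlaps another reference gene, was higher in amiR-SEAP1 in both sets, as were 25.7% of all genes tested without overlap.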

How the data were processed

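For 8 mRNA libraries the authors deposited 1 FPKM value per gene, as the file headers say. HISAT2 and build TAIR10 are named in the submitters' processing notes. Which program gave FPKM, with what annotation and strand setting, is not given in the sources used here. Another 4 libraries, of small RNA, were not used. Absolute depth is unknown, so no counting interval is given.

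Genes averaging 1 FPKM or more (20743) were fitted as log2(FPKM + 1) with limma 3.58.1 (R 4.3.3, statmod 1.5.0), with a mean-variance trend, the correlation within pairs estimated (0.906 in the genotype fit and 0.700 in the set fit) and Benjamini-Hochberg adjustment over all genes at 0.05. The set fit had genotype and set as terms. The genotype fits were run on simulated data that held a genotype effect and no set effect. Symbols and gene order came from RefSeq TAIR10.1, which held 28932 of the 33610 IDs. No coordinates are given because the builds differ.

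The members, lists, tests and alternatives were chosen with earlier results of these data known. Named genes are the members, up to 4 genes per list with the smallest genotype p, the 3 most like WRKY54 and PCC1, and their listed neighbours. SAG13, SAG29, PR3, LOX2, EDS5, EDS1, NIMIN3, PAL2 and BSMT1 were named after their values were seen. Alternatives changed the pseudocount, filter, scaling, trend, pairing, set term or left out 1 library.

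Deviations from the group mean were correlated between wild-type and amiR-SEAP1 libraries of the same number (r = 0.398, 0.42, 0.405 and 0.43 across genes). Only 2 of 4 matched their own number best, and every best match lay in the same header set. Same-numbered libraries share that set, so these correlations cannot tell the number from the set. The main fits do not pair by number. A fit with the number as a block, which also takes up the set difference, was an alternative, and its counts are given beside the results it changes.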

Additional observations from a re-analysis of the deposited data

Results flagged for a closer look

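Of the 10 genes, WRKY70 changed in opposite directions between the genotypes in the 2 sets, with the AI change 0.93 above the FLW change on the log2(FPKM + 1) scale. The difference was not tested, because each set holds 1 pair per genotype, and 18.3% of all genes tested show such opposite changes without overlap. Read as the change from FLW to AI, amiR-SEAP1 minus wild type, the genotypes went opposite ways in WRKY54 (-0.78), WRKY70 (0.93) and NIMIN1 (-1.35). These differences were not tested either, and 16.8% of all genes show the like.

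Among the other named genes, the genotype change in AI minus that in FLW was 1.79 for UGT74F2 and 0.47 for UGT74F1, which attach glucose to salicylate, -0.58 for WRKY60 and 0.83 for DIR1, a lipid-transfer protein of systemic resistance. UGT74F2 was at 7.51, 6.28, 2.05 and 1.75 FPKM in wild type and at 4.77, 4.45, 6.15 and 6.11 FPKM in amiR-SEAP1. The same difference was -5.66 for SAG12 and 3.06 for SEN1, both senescence markers, and 0.45 for PI, a floral identity gene. For the tapetum genes it was 1.12 for AMS, 0.78 for A9, 1.30 for MS2 and 0.88 for TKPR1. None of these was tested. UGT74F1, UGT74F2, DIR1, AMS and TKPR1 overlap other reference genes, and UGT74F1 and UGT74F2 are close copies that may share reads.

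WRKY53 in wild type had 1 library, replicate 4, at 2.21 FPKM, far from the other 3 at 2.75 to 2.80 FPKM. It was the only such case in 132 groups of 4 libraries. The usual rate of this rule, about 1 group in 20, is for independent libraries and does not hold for pairs of near repeats.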

How the results depend on the processing

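The counts of genes that differ between the genotypes depended on the fit. Against 48 higher and 17 lower, there were 1556 and 975 with the libraries as independent, 1543 and 1575 with a set term, 142 and 71 with no filter, 13 and 3 with a filter at 5 FPKM, and 21 and 4 without a trend. On pair means, with or without a set term, both counts were 0. Leaving out 1 library gave 13 to 21 higher and 1 to 4 lower. With the replicate number as a block, which pairs same-numbered libraries and also takes up the set difference, there were 2852 and 2306.

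Against 2791 genes higher and 2444 lower in FLW, the set fit gave 5451 and 4646 with the libraries as independent and 0 and 0 on pair means. In the salicylate and WRKY lists, 0 of the 54 tested genes passed in each direction. Beside the all-gene counts given above, 3 higher and 5 lower passed with the libraries as independent. The counts were 1 and 7 with a set term, and 4 and 9 with the replicate block. The causes of these changes were not tested. The fits on pair means and those without a library also hold fewer samples.

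Of 148 alternative values for the genotype change of the members, 146 moved by less than the pooled SD between the pairs of a genotype. With a pseudocount of 0.1 WRKY54 (-2.26) and PR2 (-1.66) moved by more, and PCC1 was at -2.64. Pairing, set term, filter and trend leave the genotype estimates unchanged in this balanced design. Only the pseudocount, the scaling and a left-out library could move them, so the count is no measure of stability. Of 124 alternative values for the set change, 109 kept direction and call. The set change of WRKY54 was near 0 and reversed with quantile scaling (-0.16) and without amiR-SEAP1 replicate 2, 3 or 4 (range over left-out libraries -0.034 to 0.036). PCC1 also lost its set call with no filter (adjusted p in limma 0.0555, range 0.0209 to 0.278 over alternatives, and 0.000575 to 0.124 for PR5), and PR2 and NPR1 passed with the libraries as independent. WRKY38 and PR1 are limited by depth.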
